A study of Homo sapiens with 10 samples.

Results

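The genes described here are 9 dual-specificity phosphatases (DUSPs) that act on mitogen-activated protein kinases (MAPKs): DUSP1, DUSP4, DUSP5, DUSP6, DUSP7, DUSP8, DUSP10, DUSP14 and DUSP16. They were taken by name from a table of read counts for 62750 gene IDs, and all 9 had enough reads to be among the 15740 genes tested. The counts come from poly(A) RNA of 12Z cells, an established line of epithelial cells derived from peritoneal endometriosis. All cells were starved overnight in medium with charcoal-stripped serum and harvested in 5 groups of 2 samples. The vehicle group received DMSO and no cytokine. The IL1β group received DMSO for 30 min and then 10 ng/ml interleukin 1β (IL1β), an inflammatory cytokine, for 6 h. In the other 3 groups DMSO was replaced by CDD-2728, at 1 µM in one group and 10 µM in another, or by CDD-3013 at 1 µM, and IL1β was given in the same way. The series describes CDD-2728 as an inhibitor of c-Jun N-terminal kinase (JNK) and lists CDD-3013 beside it. No group received an inhibitor without IL1β. The labels do not say whether samples of the same group were grown as separate cultures, so the p-values measure a spread that may be technical.

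MAPKs are switched on when a kinase phosphorylates a threonine and a tyrosine in their activation loop, and MAPK phosphatases switch them off by removing both phosphates. Many of these phosphatase genes are themselves induced by the pathways that they dampen, which makes them part of negative feedback loops. DUSP1, DUSP4 and DUSP5 are nuclear and inducible, and DUSP5 is directed at extracellular signal-regulated kinase (ERK). DUSP6 and DUSP7 are cytoplasmic and also favour ERK. DUSP8, DUSP10 and DUSP16 favour the stress-activated kinases JNK and p38. DUSP14 is a small atypical member that lacks the kinase-docking domain of the others.

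Library totals ranged from 16312600 to 19479416 counts. Levels are given as CPM, read counts relative to the size of each library, after scaling by the trimmed mean of M-values (TMM), and levels of different genes are compared only per kilobase (kb) of exon. Epithelial markers were plentiful, with a summed level of 8128 to 13477 CPM and KRT8 at the top, although 2 of the 8 averaged under 1 CPM. Stromal markers (6 genes) summed to 2967 to 4176 CPM, mostly COL1A1, and mesothelial markers (5 genes) to 621 to 958 CPM, none of either list averaging under 1 CPM. Endothelial markers (4 genes) summed to 16.2 to 53.3 CPM, almost all KDR, and immune markers (5 genes) to 15.6 to 24.6 CPM, almost all CD14, with CD3E at 0. The epithelial sum was highest with CDD-3013 (12275 and 13477 CPM) and the stromal sum was lowest at 10 µM CDD-2728 (2967 and 3081 CPM). The mesothelial sum was highest with CDD-3013 (958 and 944 CPM) and lowest at 10 µM CDD-2728 (621 and 664 CPM). The endothelial sum was 36.0 and 38.0 CPM under vehicle, 16.2 and 17.5 CPM with IL1β and 53.3 and 46.7 CPM at 10 µM CDD-2728. The part of these shifts in the results was not tested. All samples came from the same cell line, so the sums describe levels of marker genes and not shares of cell types. In bulk RNA, fewer cells expressing a gene and less RNA per cell cannot be told apart.

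DUSP8, DUSP1 and DUSP16 are shown by their promoters because DUSP8 differed most from IL1β alone in every inhibitor group, DUSP1 the highest level, and DUSP16 shares the preferred kinases of DUSP8 but moved far less. The sequences are the 250 bases before the RefSeq transcription start (GRCh38.p14), printed 5′ to 3′ on the gene's strand. Capitals mark matches to the cAMP response element TGACGTCA, a sequence bound by CREB, ATF and Jun-ATF dimers. The windows are chr11:1572272-1572521 (minus strand) for DUSP8, chr5:172771196-172771445 (minus strand) for DUSP1 and chr12:12562864-12563113 (minus strand) for DUSP16.
DUSP8: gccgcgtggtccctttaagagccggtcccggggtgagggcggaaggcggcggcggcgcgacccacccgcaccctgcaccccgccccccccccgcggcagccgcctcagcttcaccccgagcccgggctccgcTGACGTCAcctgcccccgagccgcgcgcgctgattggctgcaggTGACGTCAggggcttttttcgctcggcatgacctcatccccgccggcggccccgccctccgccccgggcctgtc
DUSP1: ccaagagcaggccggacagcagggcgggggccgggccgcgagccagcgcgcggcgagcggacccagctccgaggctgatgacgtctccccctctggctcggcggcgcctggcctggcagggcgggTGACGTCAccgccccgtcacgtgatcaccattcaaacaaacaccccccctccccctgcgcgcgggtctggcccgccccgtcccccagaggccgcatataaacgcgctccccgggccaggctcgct
DUSP16: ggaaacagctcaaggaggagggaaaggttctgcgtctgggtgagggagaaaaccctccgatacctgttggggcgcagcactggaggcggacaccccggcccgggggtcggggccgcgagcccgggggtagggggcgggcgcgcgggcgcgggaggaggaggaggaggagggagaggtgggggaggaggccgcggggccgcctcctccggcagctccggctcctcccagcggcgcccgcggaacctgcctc
DUSP8 held 2 matches, whose first bases lie at positions -118 and -74 from the start, and DUSP1 held 1 at position -125. DUSP16 held none. The element is its own reverse complement, so each match counts once for both strands. Of 35116 RefSeq promoter windows of this length, 578 (1.65%) held at least 1 match and 19 (0.0541%) held at least 2. RefSeq windows were at hand for 7 of the 9 genes, as 8 windows with 2 for DUSP10, and no window but those of DUSP8 and DUSP1 held the element. On either strand, none of the 8 held an AP-1 motif (TGANTCA, in 6.57% of all windows), an NF-kB motif (5.67%) or a serum response element (1.16%). A match is a description of the letters only, and a missing match says nothing about binding outside these windows.

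Per kb of exon, DUSP1 was the most abundant of the 9 messengers in every group and DUSP14 came next. Under vehicle, mean levels were 40.3 CPM per kb for DUSP1, 19.3 for DUSP14, 7.95 for DUSP16, 5.99 for DUSP7, 4.79 for DUSP8, 3.61 for DUSP4, 1.96 for DUSP5, 1.82 for DUSP10 and 0.662 for DUSP6. Only the neighbours DUSP5 and DUSP10 overlapped in that order. With IL1β alone DUSP8 had rank 3 at 12.9 CPM per kb, above DUSP16 at 11.8, and DUSP6 was again lowest at 1.36. No neighbours overlapped in the IL1β group. At 10 µM CDD-2728 DUSP8 was the lowest of the 9 at 1.06 CPM per kb, while DUSP5 had rank 3 at 9.95, overlapping DUSP16 at 9.44, and DUSP6 reached 4.44. With 1 µM CDD-2728, DUSP8 (3.82) overlapped both of its neighbours, DUSP4 (4.23) and DUSP5 (3.77). With 1 µM CDD-3013, DUSP8 (2.27) and DUSP6 (2.17) overlapped at the bottom, and DUSP16 (7.42) overlapped DUSP7 (6.83). When levels were divided by the length of the longest transcript instead, DUSP7 had rank 3 in every group and DUSP8 rank 4 in the IL1β group, but DUSP8 was still lowest at 10 µM CDD-2728.

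**Figure D1:**
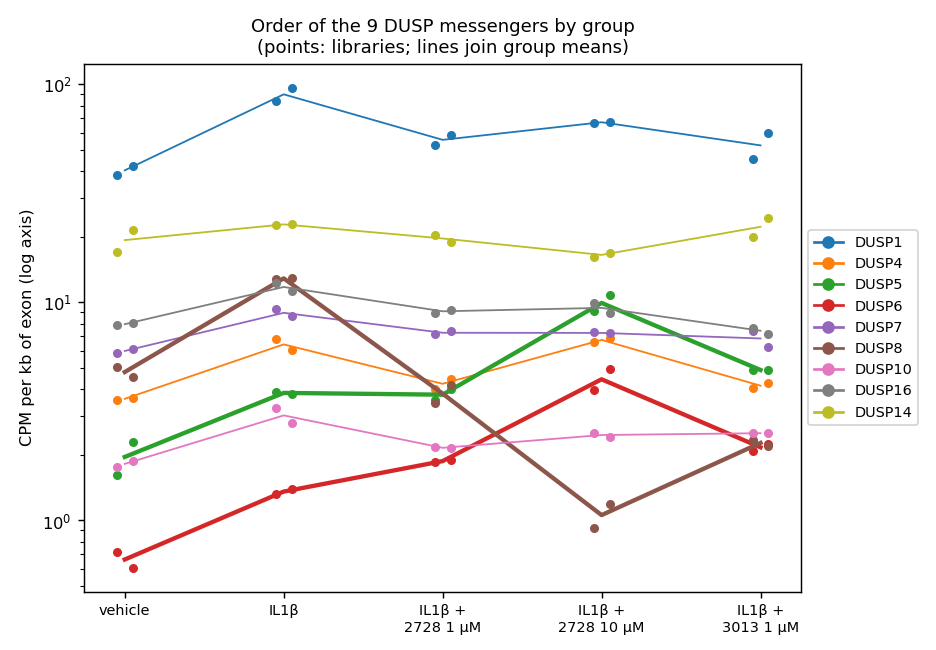
Level of each of the 9 messengers in CPM per kb of exon (log axis) in the 5 groups; points are libraries and lines join the means of 2. DUSP8 goes from 12.9 CPM per kb with IL1β alone to 1.06 at 10 µM CDD-2728, where DUSP5 (9.95) and DUSP6 (4.44) are above it.

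IL1β raised 8 of the 9 phosphatases over vehicle and lowered none (edgeR quasi-likelihood test, Benjamini-Hochberg adjusted p under 0.05 over all tested genes). Of all tested genes, 17.6% were called higher and 15.0% lower, 32.6% in all. The 9 were chosen with earlier results of these data known, so setting them against all tested genes is a description only. At an unadjusted p under 0.05 the 9 split into 9 higher and 0 lower, and DESeq2 called 8 higher and 0 lower. Here and below, the shares of all tested genes refer to the adjusted p in edgeR. The share at an unadjusted p was not computed, so counts at that threshold have no background beside them. The median log2 change was 0.83 over the 9 genes and -0.01 over all tested genes. DUSP8 rose most, by 1.43 ± 0.11 on the log2 scale (SE, adjusted p = 1.98e-10), and DUSP1 next, by 1.16 ± 0.11 (adjusted p = 8.32e-07). DUSP14 was the member not called, at 0.24 ± 0.10 (adjusted p = 0.0816), and it was called without vehicle replicate 2 and in the fit of the 4 libraries compared (adjusted p range over its 12 alternatives 0.00738 to 0.616).

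The 3 inhibitor groups were each compared with the same IL1β libraries, so these comparisons are not independent of each other. An adjusted p depends on how many genes change in a comparison, so like changes can be called in one and not in another. With 1 µM CDD-2728, 0 members were higher and 4 lower, where 2.03% and 2.57% of all tested genes were called (4.59% in all). At an unadjusted p under 0.05 the split was 1 higher and 6 lower, and DESeq2 called 0 higher and 4 lower. At 10 µM CDD-2728, 2 members were higher and 5 lower, against 15.6% and 15.9% of all tested genes (31.5% in all). Without 10 µM CDD-2728 replicate 2, which leaves 1 library in that group, fewer members were called, and so were fewer of all tested genes. With 1 µM CDD-3013, 1 was higher and 5 lower, against 19.0% and 17.3% (36.4% in all). The median log2 change over the 9 genes was -0.37, -0.31 and -0.39 in turn, and over all tested genes -0.0020, 0.0064 and -0.0072.

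**Figure D2:**
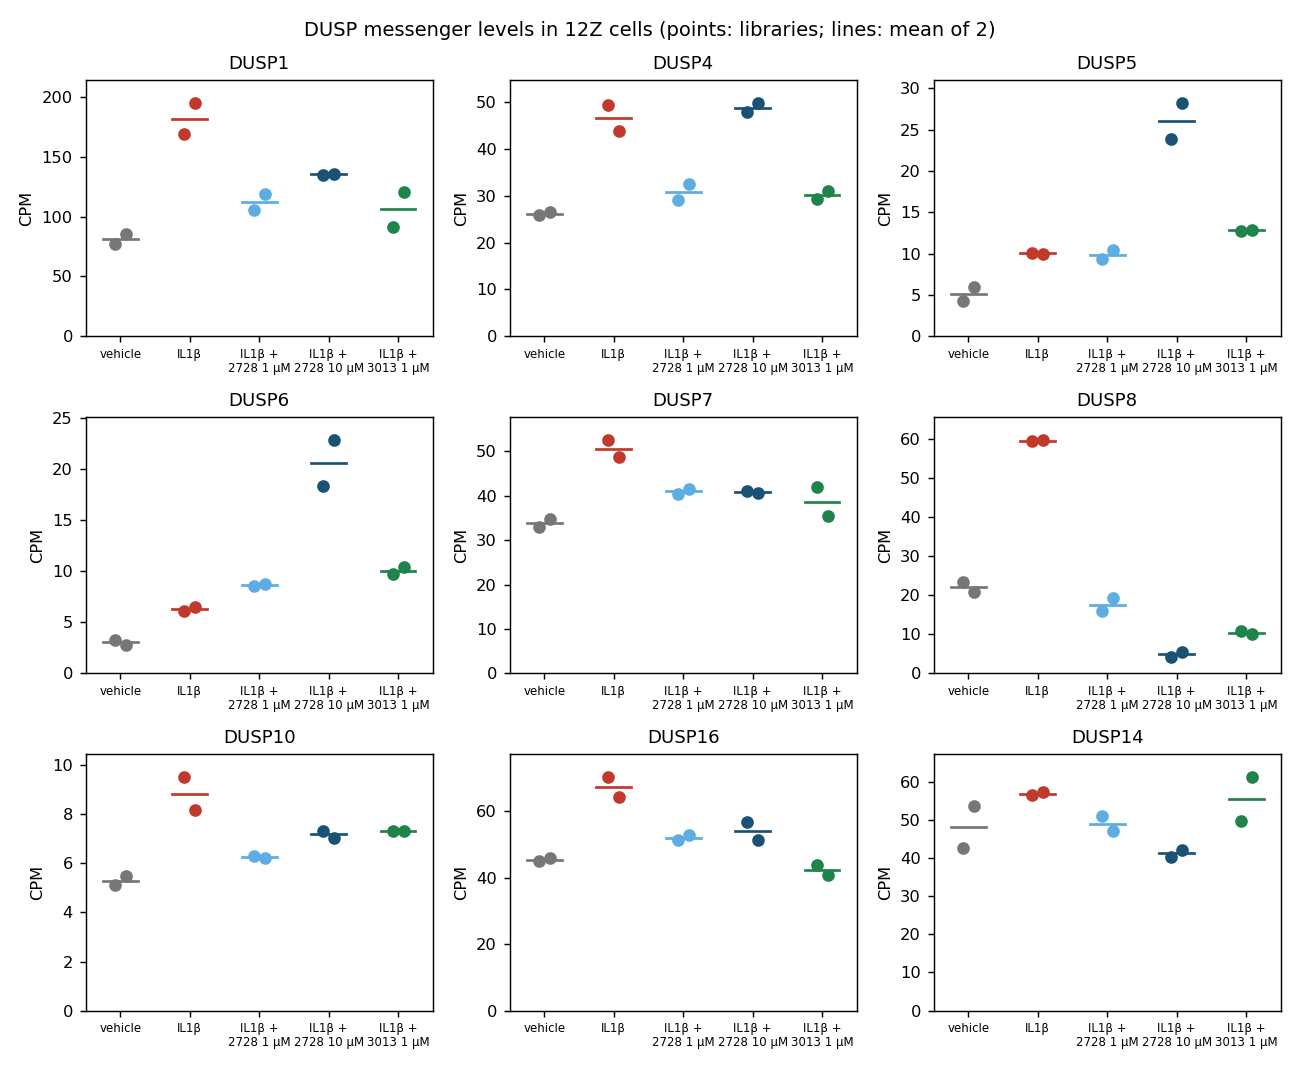
CPM of each of the 9 genes in its own panel (linear axis from 0), with a point for each of the 2 libraries of a group. DUSP8 is highest with IL1β alone (59.4 and 59.7 CPM) and lowest at 10 µM CDD-2728 (4.27 and 5.50 CPM), while DUSP5 and DUSP6 are highest at 10 µM CDD-2728.

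Among the phosphatases that favour JNK and p38, DUSP8 (chr11:1554044-1571920, minus strand; GENCODE 29 coordinates, GRCh38, here and below) fell far below its level with IL1β alone in each inhibitor group. It measured 23.4 and 20.9 CPM under vehicle and 59.4 and 59.7 CPM with IL1β. Levels were 15.9 and 19.3 CPM with 1 µM CDD-2728, 4.27 and 5.50 CPM at 10 µM, and 10.8 and 10.1 CPM with 1 µM CDD-3013. Both libraries of every inhibitor group lay below both vehicle libraries, and no 2 groups overlapped. The lowest library still held 80 reads of the gene, and the IL1β libraries held 1061 and 950. Against IL1β alone DUSP8 fell 3.38-fold with 1 µM CDD-2728 (log2 -1.76 ± 0.11 SE, adjusted p = 6.74e-10, edgeR). The fall was 12.2-fold at 10 µM (log2 -3.61 ± 0.15, adjusted p = 2.94e-15) and 5.68-fold with 1 µM CDD-3013 (log2 -2.51 ± 0.13, adjusted p = 1.73e-12). These 3 calls held in all 12 alternatives run for each.

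DUSP16 (chr12:12474210-12562383, minus strand), a JNK-directed phosphatase that shuttles between nucleus and cytoplasm, moved the same way by much less. It measured 45.0 and 46.0 CPM under vehicle and 70.3 and 64.5 CPM with IL1β. With inhibitor it was at 51.3 and 52.9 CPM (1 µM CDD-2728), 56.8 and 51.3 CPM (10 µM) and 43.9 and 41.0 CPM (CDD-3013). The IL1β libraries were above all others, and the CDD-3013 libraries were below both vehicle libraries. IL1β raised it by 0.57 ± 0.09 log2 units (adjusted p = 8.21e-06). It fell by 0.37 ± 0.09 with 1 µM CDD-2728 (adjusted p = 0.00865), by 0.32 ± 0.09 at 10 µM (adjusted p = 0.00462) and by 0.67 ± 0.10 with CDD-3013 (adjusted p = 4.08e-06). The 1 µM call was lost without IL1β replicate 1 or 1 µM CDD-2728 replicate 1 (adjusted p range over alternatives 0.00281 to 0.233). The 10 µM call was lost without IL1β replicate 1 or 10 µM replicate 2 (range 0.000336 to 0.093).

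DUSP10 (chr1:221701424-221742176, minus strand), which acts on p38 and JNK, was a low messenger, with 101 to 170 reads a library. It measured 5.12 and 5.47 CPM under vehicle, 9.51 and 8.16 CPM with IL1β, 6.31 and 6.24 CPM with 1 µM CDD-2728, 7.31 and 7.05 CPM at 10 µM and 7.31 and 7.34 CPM with CDD-3013. Both IL1β libraries were above all the others and both vehicle libraries were below them. IL1β raised it by 0.74 ± 0.18 log2 units (adjusted p = 0.000946). Its differences from IL1β alone did not pass the test: -0.50 ± 0.18 (adjusted p = 0.0849), -0.30 ± 0.17 (0.156) and -0.27 ± 0.18 (0.193) in the order 1 µM CDD-2728, 10 µM and CDD-3013.

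**Figure D3:**
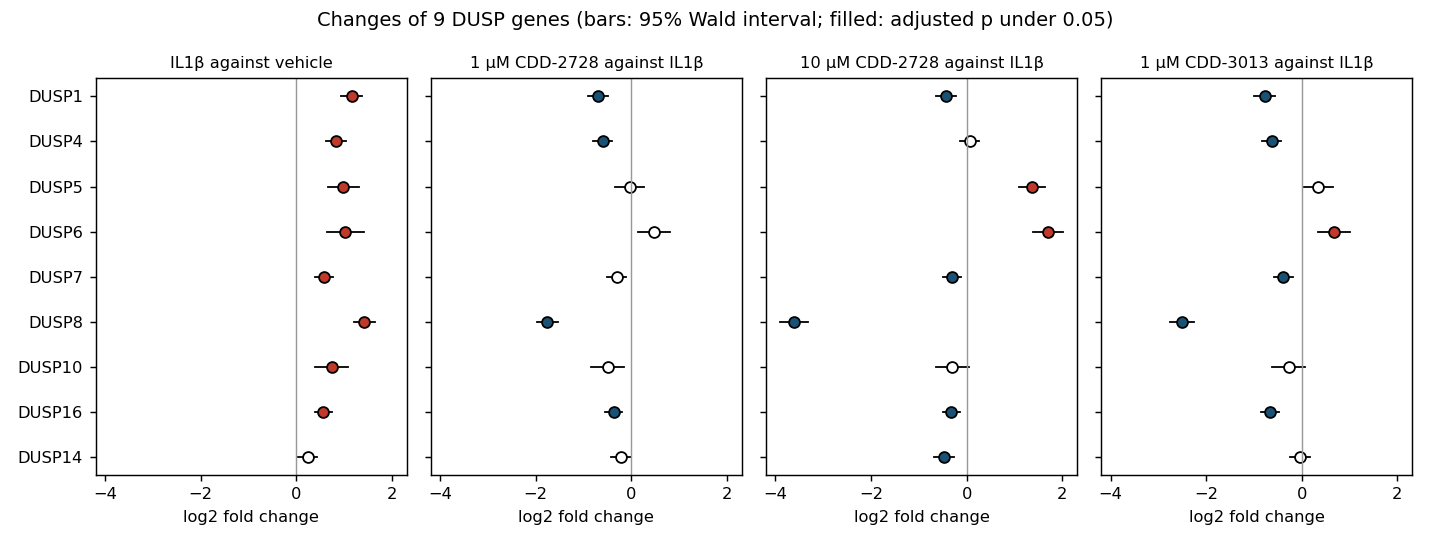
Log2 fold change of each member for IL1β against vehicle and for each inhibitor group against IL1β alone; bars are 95% Wald intervals and filled points have an adjusted p under 0.05. DUSP8 lies at -3.61 and DUSP6 at 1.71 at 10 µM CDD-2728, the 2 ends of the range.

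The ERK-directed phosphatases did not move as a block. DUSP6 (chr12:89347232-89353271, minus strand), a cytoplasmic ERK phosphatase whose messenger is a common readout of ERK output, measured 3.32 and 2.81 CPM under vehicle and 6.10 and 6.47 CPM with IL1β. It measured 8.57 and 8.77 CPM with 1 µM CDD-2728, 18.3 and 22.8 CPM at 10 µM and 9.69 and 10.4 CPM with CDD-3013. All 5 groups were apart, with vehicle lowest and 10 µM CDD-2728 highest. IL1β raised DUSP6 2.04-fold (log2 1.03 ± 0.20, adjusted p = 0.000148). At 10 µM CDD-2728 it was 3.27-fold above IL1β alone (log2 1.71 ± 0.16, adjusted p = 8.88e-09) and with CDD-3013 1.60-fold (log2 0.67 ± 0.17, adjusted p = 0.0022). The difference at 1 µM CDD-2728, 0.47 ± 0.17, missed the threshold (adjusted p = 0.118).

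DUSP5 (chr10:110497838-110511544, plus strand), a nuclear ERK phosphatase, measured 4.25 and 5.98 CPM under vehicle and 10.1 and 9.98 CPM with IL1β. With inhibitor it was at 9.30 and 10.4 CPM (1 µM CDD-2728), 23.8 and 28.2 CPM (10 µM) and 12.8 and 12.8 CPM (CDD-3013). The 1 µM CDD-2728 libraries overlapped IL1β alone, and the 10 µM libraries were above all others. IL1β raised it 1.98-fold (log2 0.98 ± 0.17, adjusted p = 5.75e-05), and 10 µM CDD-2728 raised it a further 2.58-fold (log2 1.37 ± 0.14, adjusted p = 9.48e-08). The other differences from IL1β alone did not pass: -0.03 ± 0.15 with 1 µM CDD-2728 (adjusted p = 0.947) and 0.35 ± 0.15 with CDD-3013 (adjusted p = 0.0751). The calls of DUSP5 and DUSP6 at 10 µM held in all 12 alternatives.

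DUSP7 (chr3:52048919-52056550, minus strand), the other cytoplasmic ERK phosphatase, rose with IL1β like DUSP6 but was lower than with IL1β alone at 10 µM CDD-2728 and with CDD-3013, where DUSP6 was higher. It measured 33.0 and 34.7 CPM under vehicle and 52.5 and 48.7 CPM with IL1β. With inhibitor it was at 40.4 and 41.6 CPM (1 µM CDD-2728), 41.2 and 40.7 CPM (10 µM) and 41.8 and 35.4 CPM (CDD-3013). Every inhibitor library lay between the vehicle and the IL1β libraries. IL1β raised it by 0.58 ± 0.10 log2 units (adjusted p = 2.11e-05). It fell by 0.31 ± 0.10 at 10 µM CDD-2728 (adjusted p = 0.0116) and by 0.39 ± 0.10 with CDD-3013 (adjusted p = 0.00175). Before adjustment, p in edgeR was 0.0027 at 1 µM CDD-2728 and 0.0025 at 10 µM, so only the adjustment set these doses apart. At 1 µM CDD-2728 the difference was -0.30 ± 0.10 (adjusted p = 0.0555), which passed under 3 alternatives (range 0.0331 to 0.451). The 10 µM call was lost without IL1β replicate 1 or either 10 µM replicate (range 9.91e-05 to 0.133), and the CDD-3013 call without CDD-3013 replicate 2 (range 7.79e-05 to 0.0735).

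DUSP1 (chr5:172768090-172771195, minus strand) encodes a nuclear phosphatase of p38, JNK and ERK that restrains inflammatory signalling. It measured 77.5 and 85.4 CPM under vehicle and 168.7 and 194.9 CPM with IL1β. With inhibitor it was at 105.9 and 118.9 CPM (1 µM CDD-2728), 134.8 and 135.9 CPM (10 µM) and 91.3 and 120.7 CPM (CDD-3013). Every inhibitor library lay between the vehicle and the IL1β libraries, and the CDD-3013 pair was the widest spread. DUSP1 fell from IL1β alone by 0.69 ± 0.11 log2 units with 1 µM CDD-2728 (adjusted p = 0.00142), by 0.42 ± 0.11 at 10 µM (adjusted p = 0.00762) and by 0.78 ± 0.11 with CDD-3013 (adjusted p = 8.22e-05). The 10 µM call was lost without IL1β replicate 2 or either 10 µM replicate (range 3.53e-07 to 0.0746).

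DUSP4 (chr8:29333064-29350668, minus strand), a nuclear phosphatase of ERK and JNK, was lower than with IL1β alone at 1 µM of either inhibitor, and at 10 µM CDD-2728 it was not called. It measured 25.8 and 26.6 CPM under vehicle and 49.4 and 43.8 CPM with IL1β. With inhibitor it was at 29.03 and 32.4 CPM (1 µM CDD-2728), 47.9 and 49.8 CPM (10 µM) and 29.2 and 31.0 CPM (CDD-3013). The 10 µM libraries overlapped IL1β alone, whereas both 1 µM pairs lay just above vehicle. IL1β raised DUSP4 by 0.83 ± 0.10 log2 units (adjusted p = 1.72e-07). It fell by 0.60 ± 0.10 with 1 µM CDD-2728 (adjusted p = 0.000231) and by 0.63 ± 0.10 with CDD-3013 (adjusted p = 2.41e-05). At 10 µM the difference was 0.07 ± 0.10 (adjusted p = 0.617).

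DUSP14 (chr17:37489831-37513501, plus strand), the small atypical member, passed the test in 1 of the 4 comparisons of IL1β with vehicle and of the inhibitor groups with IL1β. It measured 42.7 and 53.8 CPM under vehicle, 56.6 and 57.4 CPM with IL1β, 51.1 and 47.1 CPM with 1 µM CDD-2728, 40.3 and 42.3 CPM at 10 µM and 49.9 and 61.2 CPM with CDD-3013. The 10 µM libraries were below all others, and the CDD-3013 libraries spanned the IL1β pair. It fell by 0.47 ± 0.11 log2 units at 10 µM (adjusted p = 0.00187), while -0.21 ± 0.10 with 1 µM CDD-2728 (adjusted p = 0.288) and -0.04 ± 0.10 with CDD-3013 (adjusted p = 0.816) did not pass.

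The 2 doses of CDD-2728 were then compared directly. The IL1β-only libraries are not in this contrast, but they shared in the fit that estimated the spread. At 10 µM, 3 members were higher than at 1 µM and 1 was lower, against 13.3% and 13.8% of all tested genes (27.1% in all). DUSP5 was 2.63-fold higher (log2 1.40 ± 0.14, adjusted p = 1.87e-07), DUSP6 2.37-fold (log2 1.24 ± 0.15, adjusted p = 1.21e-06) and DUSP4 1.59-fold (log2 0.67 ± 0.10, adjusted p = 1.34e-05). DUSP8 was 3.61-fold lower (log2 -1.85 ± 0.16, adjusted p = 5.28e-09). DUSP1 differed by 0.27 ± 0.11 (adjusted p = 0.0848) and passed in 5 of 12 alternatives (range 0.00766 to 0.344). DUSP7 and DUSP16 overlapped between the doses, at -0.0019 ± 0.10 and 0.05 ± 0.10.

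CDD-3013 and CDD-2728 were compared at the matched concentration of 1 µM and the same time. With CDD-3013, 0 members were higher and 2 lower, against 9.85% and 8.01% of all tested genes (17.9% in all). At an unadjusted p under 0.05 the split was 1 higher and 2 lower, and DESeq2 called 0 higher and 2 lower. DUSP8 was 1.68-fold lower with CDD-3013 (log2 -0.75 ± 0.14, adjusted p = 0.00117), a call that held in all 12 alternatives. DUSP16 was 1.23-fold lower (log2 -0.30 ± 0.10, adjusted p = 0.0187), and that call was lost without 1 µM CDD-2728 replicate 2, without CDD-3013 replicate 2 and with offsets for transcript length and GC content (range 0.00629 to 0.173). The other 7 did not pass, which does not show that the compounds act alike on them. Their 95% Wald intervals ran from -0.30 to 0.13 for DUSP1, from -0.24 to 0.18 for DUSP4 and from -0.28 to 0.11 for DUSP7. For DUSP5 the interval was 0.08 to 0.67 (unadjusted), for DUSP6 -0.11 to 0.52, for DUSP10 -0.14 to 0.58 and for DUSP14 -0.03 to 0.38.

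Against vehicle, the inhibitor groups show where each gene ended up relative to unstimulated cells, with the vehicle libraries shared among comparisons. With 1 µM CDD-2728, 4 members were higher and 1 lower, against 18.3% and 16.6% of all tested genes (34.8% in all). At 10 µM the counts were 7 and 1, against 18.2% and 16.4% (34.7%). With CDD-3013 they were 4 and 1, against 26.0% and 23.4% (49.4%). Fewer members were called without vehicle replicate 1, both with 1 µM CDD-2728 and with CDD-3013, and at 10 µM without 10 µM replicate 1. Fewer of all tested genes were called in these fits as well. With library totals in place of TMM factors the splits were 3 and 1, 4 and 2, and 2 and 2. DUSP8 was the lower member in each main fit, at -0.33 ± 0.12 (adjusted p = 0.0299), -2.19 ± 0.15 (adjusted p = 1.01e-11) and -1.08 ± 0.13 (adjusted p = 2.64e-07). The first of these calls was lost in 5 of 12 alternatives, among them those without vehicle replicate 1 and without 1 µM CDD-2728 replicate 1 (range 0.00115 to 0.318). DUSP6 was 2.81-fold, 6.66-fold and 3.25-fold above vehicle in the same order, and DUSP5 1.94-fold, 5.10-fold and 2.52-fold, and these 6 calls held in all alternatives. DUSP1 with CDD-3013 (0.38 ± 0.11, adjusted p = 0.0111) lost its call in 4 of 12 (range 3.02e-06 to 0.39), among them those without vehicle replicate 1 and without CDD-3013 replicate 2. DUSP10 lost its call in 8 of 12 at 10 µM (range 0.0312 to 0.176), including each of the 4 that leave out a library, and in 6 of 12 with CDD-3013 (range 0.0187 to 0.287), including those without vehicle replicate 1 or either CDD-3013 replicate. At 10 µM DUSP7 lost its call in 5 of 12 (range 0.0124 to 0.186), including those without vehicle replicate 1 or either 10 µM replicate. DUSP16 lost its call there in 5 of 12 (range 0.0164 to 0.221), including those without either vehicle replicate or 10 µM replicate 1. DUSP7 with 1 µM CDD-2728 lost its call in 3 of 12 (range 0.00563 to 0.472), including those without vehicle replicate 1 or 1 µM replicate 2.

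DUSP8 and DUSP6 both rose with IL1β, and their unequal change was read in each library as the ratio of their levels per kb. DUSP8 exceeded DUSP6 7.05-fold and 7.46-fold under vehicle and 9.77-fold and 9.26-fold with IL1β. The ratio was 1.86 and 2.21 with 1 µM CDD-2728, 1.12 and 0.979 with CDD-3013, and 0.234 and 0.242 at 10 µM CDD-2728. The ratio of DUSP8 to DUSP5 was 3.12 and 1.98 under vehicle and 3.32 and 3.38 with IL1β. It was 0.968 and 1.05 with 1 µM CDD-2728, 0.480 and 0.447 with CDD-3013, and 0.102 and 0.110 at 10 µM CDD-2728. A ratio within a library shows unequal change and not which gene moved. Summed over the 9 genes, the level per kb was 81.9 and 91.0 CPM under vehicle, 155.9 and 166.3 with IL1β and 96.1 to 126.6 in the inhibitor groups, and DUSP1 made up 46.5% to 58.0% of it.

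**Figure D4:**
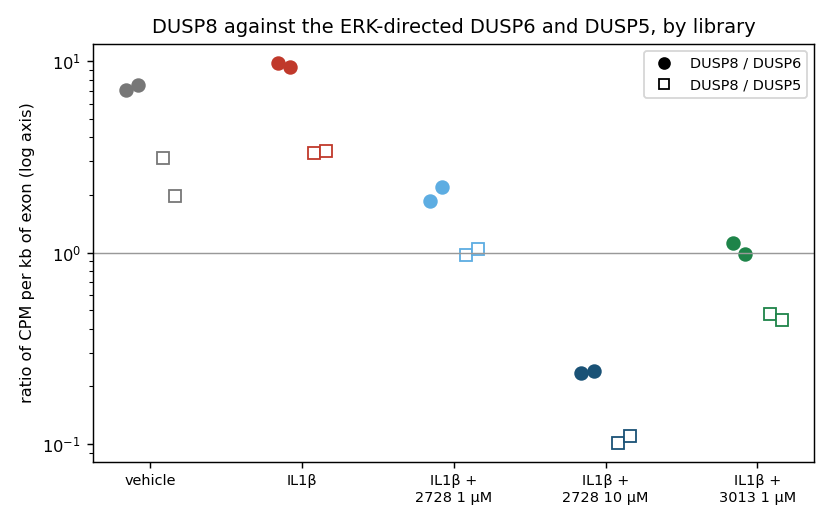
Ratios of DUSP8 to DUSP6 (filled circles) and of DUSP8 to DUSP5 (open squares), in CPM per kb of exon, for each library (log axis), by group. The ratio to DUSP6 lies between 7.05 and 9.77 without inhibitor and at 0.234 and 0.242 at 10 µM CDD-2728. The ratio to DUSP5 lies between 1.98 and 3.38 without inhibitor and at 0.102 and 0.110 at 10 µM CDD-2728.

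Of the remaining MAPK phosphatases, DUSP2 (0.416 to 0.923 CPM) and DUSP9 (0.502 to 1.18 CPM) were barely detected. The catalytically inactive relative STYXL1 measured 17.8 and 15.6 CPM with IL1β and 21.9 and 24.3 CPM with CDD-3013, a rise of 0.46 ± 0.13 log2 units (adjusted p = 0.00485). It was the 1 of these 3 genes called against IL1β in any inhibitor group, and with IL1β against vehicle 0 of the 3 were called (0 at an unadjusted p under 0.05 and 0 by DESeq2). Of 14 atypical DUSPs, 9 were tested. With IL1β 1 was higher and 1 lower, against 17.6% and 15.0% of all tested genes. Against IL1β alone the counts were 0 and 1 with 1 µM CDD-2728 (for the 0, also 0 at an unadjusted p under 0.05 and 0 by DESeq2), 1 and 2 at 10 µM and 1 and 2 with CDD-3013, where 4.59%, 31.5% and 36.4% of all tested genes were called. The median log2 change of the 9 was 0.05 with IL1β and -0.05, -0.12 and 0.10 in the inhibitor groups. DUSP3, which dephosphorylates ERK and JNK and lacks the docking domain, measured 81.4 and 84.3 CPM under vehicle and 128.9 and 132.8 CPM with IL1β. It was at 96.7 and 97.4 CPM (1 µM CDD-2728), 89.4 and 98.7 CPM (10 µM) and 85.6 and 97.7 CPM (CDD-3013), so each inhibitor library lay below both IL1β libraries. DUSP3 rose with IL1β and was called lower than IL1β alone in all 3 inhibitor groups, at -0.43 ± 0.08, -0.48 ± 0.08 and -0.51 ± 0.09 on the log2 scale. DUSP19 went the other way, at -1.07 ± 0.27 with IL1β (adjusted p = 0.00343) and 0.91 ± 0.28 at 10 µM CDD-2728 against IL1β (adjusted p = 0.0149). With CDD-3013 DUSP23 was higher than with IL1β alone (0.64 ± 0.20, adjusted p = 0.0161) and STYX lower (-0.46 ± 0.13, adjusted p = 0.00547), and at 10 µM DUSP12 was lower (-0.46 ± 0.15, adjusted p = 0.0181).

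The kinases that these phosphatases act on were also read at the messenger level. Of 10 MAP kinase genes, 3 were higher and 1 lower with IL1β, 0 and 0 with 1 µM CDD-2728 against IL1β, 2 and 3 at 10 µM and 2 and 3 with CDD-3013. Of all tested genes, 32.6%, 4.59%, 31.5% and 36.4% were called in these comparisons, so the list stood near the background. The median log2 change was -0.06, 0.0023, 0.02 and 0.03 in turn. For the 0 and 0, an unadjusted p under 0.05 gave 1 and 1, and DESeq2 gave 0 and 0. MAPK8 (JNK1) measured 32.1 and 35.7 CPM with IL1β and 27.2 and 25.8 CPM with CDD-3013, and so fell by 0.35 ± 0.11 log2 units (adjusted p = 0.0058). It differed from IL1β alone by -0.03 ± 0.11 with 1 µM CDD-2728 (adjusted p = 0.893) and by 0.0025 ± 0.11 at 10 µM (adjusted p = 0.988). MAPK9 (JNK2) measured 68.1 and 69.5 CPM with IL1β and fell to 57.5 and 56.8 CPM at 10 µM CDD-2728 (-0.27 ± 0.09, adjusted p = 0.0132) and to 55.8 and 61.0 CPM with CDD-3013 (-0.24 ± 0.09, adjusted p = 0.0243). With 1 µM CDD-2728 it differed by -0.12 ± 0.09 (adjusted p = 0.437). MAPK10 (JNK3), a scarce messenger, measured 1.34 and 0.565 CPM with IL1β and rose to 2.78 and 2.27 CPM at 10 µM (1.38 ± 0.38, adjusted p = 0.00622). Of 7 MAP kinase kinases, 2 were higher and 2 lower with IL1β (median 0.14). Against IL1β alone the counts were 0 and 0 with 1 µM CDD-2728 (0 and 0 also at an unadjusted p under 0.05 and by DESeq2), 1 and 1 at 10 µM, and 1 and 0 with CDD-3013 (for the 0, also 0 by both). The medians were -0.03, 0.05 and -0.0043. MAP2K3, an activator of p38, rose with IL1β from 58.3 and 58.8 CPM to 129.7 and 130.6 CPM (1.15 ± 0.09, adjusted p = 2.34e-11). MAP2K6, its relative, fell from 8.40 and 7.05 CPM to 0.615 and 1.00 CPM (-3.26 ± 0.33, adjusted p = 1.88e-09).

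Of 15 other genes of ERK feedback and output, 5 were higher and 1 lower than with IL1β alone at 10 µM, 0 and 3 at 1 µM, and 1 and 5 with CDD-3013; the median log2 change was 0.04, -0.13 and -0.19. Of all tested genes, 31.5%, 4.59% and 36.4% were called in these comparisons, so the counts in both directions together at 10 µM and with CDD-3013 stood near the background. By direction, 15.6% were higher and 15.9% lower at 10 µM, and 19.0% and 17.3% with CDD-3013. With IL1β against vehicle, 12 of the 15 were higher and 1 lower (median log2 change 0.55). Of all tested genes, 17.6% and 15.0% were called there. For the 0 higher at 1 µM, an unadjusted p under 0.05 gave 2 and DESeq2 gave 0. SPRY4, a Sprouty inhibitor of receptor tyrosine kinase signalling, measured 12.7 and 8.85 CPM with IL1β and 37.7 and 40.2 CPM at 10 µM (1.84 ± 0.14, adjusted p = 1.12e-09). ETV5, an ETS transcription factor, measured 19.4 and 15.4 CPM with IL1β and 41.2 and 39.9 CPM at 10 µM (1.22 ± 0.12, adjusted p = 3.42e-08). Neither gene's 10 µM libraries overlapped any other group. SPRY2 and PHLDA1 rose there by 0.84 ± 0.13 and 0.73 ± 0.11 (adjusted p = 1.27e-05 and 1.31e-05). ETV4 was the 1 called lower there, at -0.53 ± 0.12, and 9 of the 15 were not called. With CDD-3013 SPRED1, IER3 and EPHA2 were among the 5 called lower, at -0.50 ± 0.11, -0.31 ± 0.08 and -0.25 ± 0.08. SPRY1 was the 1 called higher, at 0.67 ± 0.16.

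**Figure D5:**
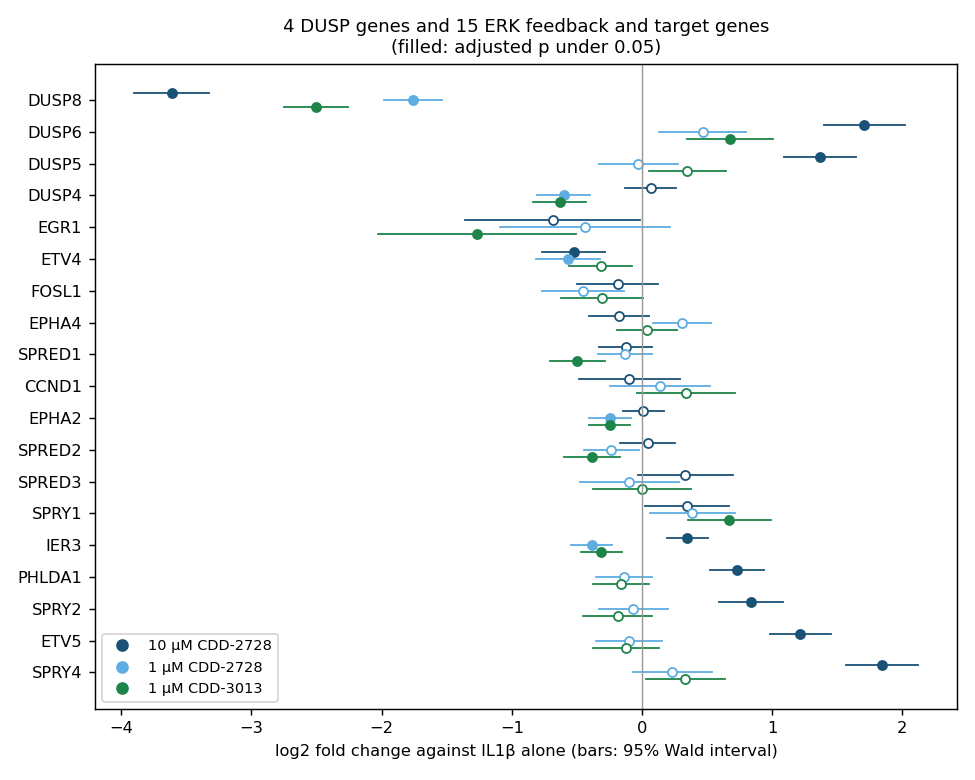
Log2 fold change against IL1β alone for 4 DUSP genes and 15 ERK feedback and target genes in the 3 inhibitor groups; bars are 95% Wald intervals and filled points have an adjusted p under 0.05. At 10 µM CDD-2728 SPRY4 (1.84) and ETV5 (1.22) lie on the same side as DUSP5 (1.37) and DUSP6 (1.71). DUSP8 (-3.61) and ETV4 (-0.53) lie on the other, and 9 of the 15 genes were not called.

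Of 12 tested AP-1 genes, which encode the Jun and Fos families and their partners, 9 were higher and 0 lower with IL1β, against 17.6% and 15.0% of all tested genes. The median log2 change was 0.88. An unadjusted p under 0.05 gave 9 and 1, and DESeq2 gave 9 and 0. Against IL1β alone, 1 was higher and 4 lower with 1 µM CDD-2728, 7 and 3 at 10 µM, and 4 and 4 with CDD-3013, with medians of -0.19, 0.26 and -0.01. Of all tested genes, 4.59%, 31.5% and 36.4% were called in these comparisons. JUN, which encodes the JNK substrate c-Jun, measured 132.6 and 146.0 CPM under vehicle and 308.1 and 324.7 CPM with IL1β. It was at 164.9 and 168.8 CPM (1 µM CDD-2728), 76.6 and 86.7 CPM (10 µM) and 126.9 and 129.2 CPM (CDD-3013). The groups of JUN libraries did not overlap, and they stood in the same order as those of DUSP8 except at vehicle. JUN fell by 0.92 ± 0.08, 1.96 ± 0.08 and 1.31 ± 0.08 log2 units in the order of the groups given (adjusted p = 1.37e-08, 3.88e-15 and 2.23e-11). JUND also fell at 10 µM, by 0.63 ± 0.08. JUNB and FOS were among the 7 called higher there, by 1.13 ± 0.10 and 2.27 ± 0.23, with FOS at a mean of 2.11 CPM with IL1β alone. JUNB was also higher with CDD-3013, by 0.78 ± 0.10.

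The genes whose levels followed each member most closely over the 10 libraries were found among 11415 candidates by the Pearson correlation of log2 CPM. The 10 libraries form 5 pairs, so these values describe the group pattern and carry no test. DUSP8 was followed by DHX33 (r = 0.985), ADAMTS16 (0.978) and PMEPA1 (0.976). PMEPA1 averaged 60.4 CPM under vehicle, 89.7 with IL1β and 41.8 at 10 µM CDD-2728. DUSP6 was followed by EFNA1 (0.995), C2CD4B (0.991) and ROR2 (0.990), and EFNA1 averaged 20.9, 38.3 and 129.5 CPM in those groups. DUSP5 was followed by SEMA4B (0.984), DUSP1 by KLF6 (0.959), DUSP4 by WWC3 (0.969), DUSP7 by PDE4DIP (0.962), DUSP10 by LOXL2 (0.950), DUSP14 by MED6 (0.938) and DUSP16 by SYNJ2 (0.970). Among the 9 themselves, DUSP5 and DUSP6 were closest (0.960), then DUSP7 and DUSP16 (0.874) and DUSP1 and DUSP4 (0.856), and DUSP6 and DUSP8 were the most opposed (-0.702).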

How the data were processed

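The build was hg38 and the tools were featureCounts, STAR and fastp, per the submitters' processing notes; versions and the annotation release were not given in the sources used here. Raw counts per gene ID and library, as deposited by the authors in 1 table, were the input. Of 62750 IDs, 61918 matched a gene name with version and 754 without it, and 78 matched none. Exon lengths came from GENCODE 29 (GRCh38), which holds 58323 of the IDs and is not the release behind the counts, so levels per kb join 2 annotations. All 10 libraries were fitted together, by group, with edgeR 4.0.16 in R 4.3.3 (quasi-likelihood test, robust, TMM factors, filterByExpr with a minimum count of 10), with 5 residual degrees of freedom, Benjamini-Hochberg adjustment over 15740 genes and a threshold of 0.05. Standard errors are Wald errors, and their 95% intervals use the normal quantile. The intervals can therefore be narrower than the p-values of the quasi-likelihood test imply. Alternatives were other scalings and filters, a replicate block, length and GC offsets, fits of 4 libraries, DESeq2 1.42.0 and each library left out. The fit was tested on simulated data for IL1β against vehicle (13036 genes), with 100 genes changed by 1 log2 unit and 100 by 2. It recovered 95% of the former and 100% of the latter, with 5.34% of its calls false. These percentages describe those data only. Recovery of changes smaller than 1 log2 unit, and of changes in the other comparisons, was not tested. The text names all 9 members; of each other list, counts and up to 4 genes with the smallest adjusted p, with JUN, MAPK8 and MAPK9 always; and the genes most correlated with each member. The members and lists were chosen with earlier results of these data known. Replicates differed by more than sampling noise (chi-square per degree of freedom 2.55 to 7.61), so none was counted as a duplicate. Reads on genes overlapping DUSP1, DUSP6, DUSP8 and DUSP16 on the other strand came to 20, 23, 19 and 5 over all libraries.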

Additional observations from a re-analysis of the deposited data

How the results depend on the processing

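No member changed direction in a call. Leaving out 1 library at a time gave 8 to 9 members called for IL1β against vehicle, 3 to 4 with 1 µM CDD-2728 against IL1β, 4 to 6 at 10 µM, 5 to 6 with CDD-3013, 4 to 4 between the doses and 1 to 2 between the compounds; against vehicle it gave 3 to 5, 5 to 6 and 3 to 6. The main counts were 8, 4, 7, 6, 4, 2, 5, 8 and 5, and the lowest count at 10 µM against IL1β came without 10 µM CDD-2728 replicate 2. With 1 library left in a group, that library is assumed to vary like the other groups. Most of these fits also called fewer of all tested genes than the main fit. The exceptions were 1 µM CDD-2728 against IL1β without 1 µM replicate 2 and the compounds compared without 1 µM CDD-2728 replicate 1. Length and GC offsets, for which 97.3% of tested genes had values, gave 1 member between the compounds and 3 for CDD-3013 against vehicle; the cause was not tested. Over all tested genes, deviations between replicates were nearly uncorrelated from group to group (-0.114 to 0.055). Such values cannot exclude a pairing that acts on some genes, and DUSP1 was higher in replicate 2 in every group. A replicate block changed 1 of 81 results, calling DUSP1 between the doses (adjusted p = 0.0162), for 5 members in place of 4. Library totals gave medians over all genes of -0.18 for IL1β and -0.21, -0.12 and -0.29 for the inhibitor groups against vehicle, and calls of 1623 higher and 4730 lower (main 2769 and 2360), 1543 and 5176 (2873 and 2605), 2107 and 4125 (2870 and 2586) and 2148 and 6595 (4087 and 3685). Against IL1β they called 3082 and 1911 at 10 µM (2454 and 2504) and 2285 and 3548 with CDD-3013 (2994 and 2729), between doses 2826 and 1389 (2093 and 2169) and between compounds 1034 and 1965 (1550 and 1261), where the offsets called 464 and 233. The offsets also called 2149 and 3388 at 10 µM and 2732 and 1748 with CDD-3013 against IL1β, 1705 and 3522 between doses and 2536 and 3609 at 10 µM against vehicle. Rescaling moved 23 of 90 group levels by more than 1 SD. The lowest read counts among the members were 55 and 72 for DUSP6 under vehicle and 80 and 92 for DUSP8 at 10 µM.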
